A study of Mus musculus with 2 samples.

Results

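Smooth muscle contractile genes were examined in total RNA of the mouse small intestine, as a set of 10 genes: Acta2, Actg2, Myh11, Tagln, Cnn1, Des, Synm, Myl9, Lmod1 and Smtn. They were taken by name from the non-control probes of 2 two-colour Agilent whole-genome arrays, on which they have 16 probes, 15 of them measured, and all 10 are among the 17162 genes measured. One RNA sample came from C57BL/6 mice fed conventional chow (Conv), and the other from mice of the same strain kept on a diet without food antigens (FAF), in which amino acids stand in for protein, over up to 5 generations. The mice were 6 to 8 weeks old. Both arrays carry the same 2 RNA samples with the dyes exchanged, so each diet is represented by 1 RNA sample and the arrays repeat the measurement, not the animals. The labels mention specific-pathogen-free and germ-free housing without saying which mice gave the RNA, and they do not say how many mice it came from, which segment was taken or whether the muscle layers were trimmed. The epithelial markers Epcam, Cdh1, Vil1 and Krt20 and all 10 contractile genes were well above background in both diets, so signals of both tissues of the gut wall were present.

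Smooth muscle forms the circular and longitudinal layers that move the gut contents, the thin muscularis mucosae, the strands inside the villi and the walls of blood vessels. Its cells shorten when calcium and calmodulin activate myosin light chain kinase, which phosphorylates the regulatory light chain and lets myosin pull on actin filaments. Actin-binding proteins tune and build the thin filaments, while desmin and synemin filaments tie the contractile bundles to the cell's anchoring plaques. Many of these genes are controlled by serum response factor, which binds a short sequence called the CArG box, together with its partner myocardin.

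All values are ratios of FAF over Conv on the log2 scale, or spot intensities on the log2 scale after normalisation within and between the arrays. The figure after ± is how far each array lay from the mean of both. It covers dye and hybridisation error and not the spread between mice, so no test between the diets was possible. In whole tissue, fewer muscle cells and less RNA per muscle cell cannot be told apart.

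All 10 contractile genes stood below 0 on both arrays, which held for 39.4% of all measured genes. Their median was -0.55, which corresponds to a FAF signal of 68.4% of that in Conv, while the median of all genes was -0.00. The 2 arrays agreed on the sign only once the dye trend over intensity was removed: with arrays merely centred on their medians, 9 of the 10 stood above 0 on the array with FAF in Cy5 and all 10 below 0 on the other, with set medians of 0.24 and -1.19, and 10.9% of all genes were below 0 on both. The dye exchange balances this trend in the mean, which was then -0.51. The members ranged from -0.76 for Synm to -0.24 for Smtn. Each member's FAF signal was below its Conv signal on the same array, and in every member both FAF values lay below both Conv values, as the plot of signals by diet shows.

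**Figure D1:**
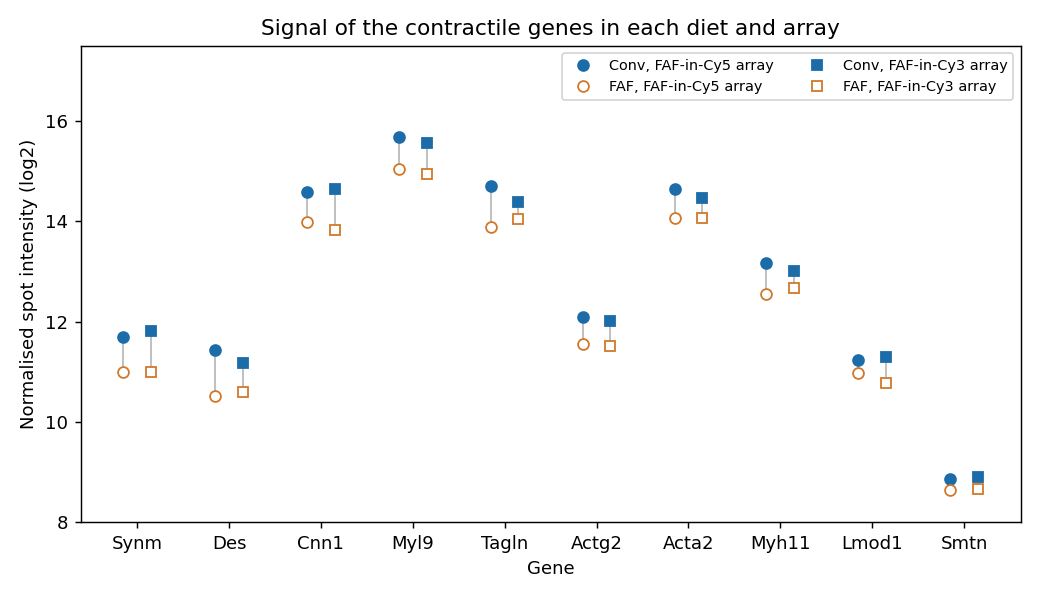
Normalised spot intensity (log2) of the probe that represents each contractile gene, in Conv (filled) and FAF (open), with circles for the array with FAF in Cy5 and squares for the array with FAF in Cy3. Every open symbol lies below the filled symbol of its array, from Synm, with a mean log2 ratio of -0.76, to Smtn, at -0.24; heights of different genes are not comparable because each probe has its own brightness.

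Among the sliding filament proteins, Acta2 encodes the alpha actin of smooth muscle, found in vessels and gut alike. Its representing probe (mm9 chr19:34316060-34316119) read 14.64 in Conv and 14.07 in FAF on the array with FAF in Cy5 (the first array), and 14.47 and 14.06 on the other (the second). The FAF values were lower on both arrays, with a mean log2 ratio of -0.49 ± 0.08. Actg2 encodes the gamma actin that predominates in visceral smooth muscle. Its probe (mm9 chr6:83472853-83473179) read 12.09 in Conv against 11.55 in FAF, and 12.01 against 11.51 with the dyes exchanged. The arrays gave nearly the same ratio, -0.54 and -0.50. Actg2 stood at -0.52 ± 0.02, beside Acta2.

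Myh11, the heavy chain of smooth muscle myosin and the motor of contraction, read 13.17 in Conv and 12.55 in FAF on the first array, and 13.01 and 12.67 on the second (mm9 chr16:14195223-14198147). Its ratio of -0.48 ± 0.14 was similar to those of both actins, but the arrays were further apart. Myl9, the regulatory light chain that the kinase phosphorylates, had, with Smtn, the arrays closest to each other (mm9 chr2:156607301-156607360). It read 15.68 in Conv and 15.04 in FAF, and 15.57 and 14.95 with the dyes exchanged. Its ratio was -0.62 ± 0.01, so that FAF had 64.9% of the Conv signal.

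The thin-filament proteins spread most widely. Tagln, also known as SM22, binds and bundles actin. Its brighter probe (mm9 chr9:45738097-45738156) read 14.71 in Conv against 13.89 in FAF on the array with FAF in Cy5, but 14.38 against 14.04 on the other. The ratios of these arrays, -0.82 and -0.33, were the furthest apart of any member, and the mean was -0.58 ± 0.24. Cnn1, calponin, holds back the ATPase of myosin on actin. It read 14.59 in Conv and 13.99 in FAF, and 14.65 and 13.83 with the dyes exchanged (mm9 chr9:21913058-21913117). Here the second array gave the larger difference, and the ratio was -0.71 ± 0.11.

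Lmod1, leiomodin, starts new actin filaments in smooth muscle. It read 11.23 in Conv and 10.97 in FAF, then 11.29 and 10.77 (mm9 chr1:137263311-137263369), for a ratio of -0.39 ± 0.13. Smtn, smoothelin, binds actin in contractile smooth muscle cells. Its probe read 8.87 in Conv and 8.64 in FAF, and 8.91 and 8.66 with the dyes exchanged (mm9 chr11:3420834-3420893). Both arrays placed Smtn nearest to 0 among the members, with a mean of -0.24 ± 0.01, or 84.4% of the Conv signal.

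The intermediate filament genes were the lowest in the set. Des, desmin, forms the filaments that link contractile bundles to each other. It is printed 10 times on each array (mm9 chr1:75363404-75363629) and read 11.43 in Conv and 10.52 in FAF, and 11.18 and 10.60 with the dyes exchanged. The 10 spots gave log2 ratios of -0.90 ± 0.05 (SD over spots) on the array with FAF in Cy5 and -0.58 ± 0.04 on the other, so the arrays differed by much more than spots of 1 array did. Des stood at -0.74 ± 0.16. Synm, synemin, is built into desmin filaments and anchors them. Its brighter probe (mm9 chr7:74877634-74877693) read 11.70 in Conv and 11.00 in FAF, and 11.81 and 10.99 with the dyes exchanged. The ratio of -0.76 ± 0.06, or 59.2% of the Conv signal, was the lowest of the 10 genes. A second Synm probe, nearer the end of the transcript, gave -0.82 ± 0.03.

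**Figure D2:**
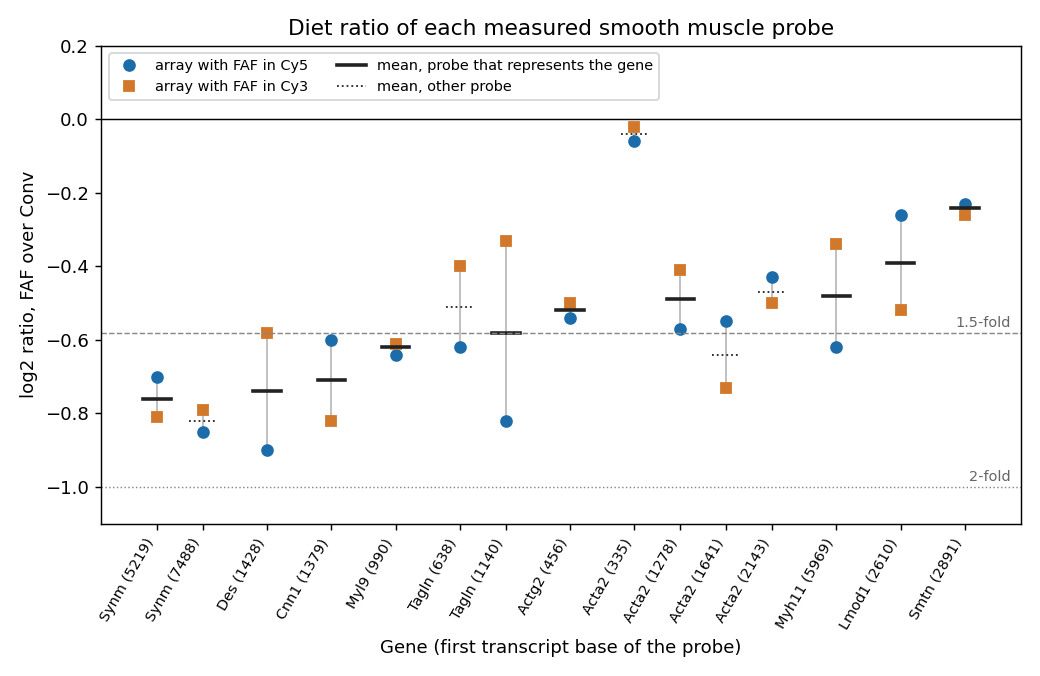
Log2 ratio of FAF over Conv of each of the 15 measured probes of contractile genes on either array, with the mean as a solid bar for the probe that represents the gene and a dotted one for others; the number after a gene is the probe's first base in the transcript, and dashed and dotted lines mark 1.5-fold and 2-fold lower. All probes lie below 0 on both arrays, the Acta2 probe at base 335 nearly reaches 0, and no mean passes 2-fold.

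The sizes were modest. A gene was counted as lower or higher where its mean ratio reached 1.5-fold and neither array had the opposite sign. By this rule 4 of 10 contractile genes were lower in FAF: Synm at 1.69-fold, Des at 1.67-fold, Cnn1 at 1.63-fold and Myl9 at 1.54-fold. The same rule took 3.59% of all measured genes as lower, and 5.22% of the 8780 genes at least as bright as the dimmest member. Tagln lay just outside the limit, at 1.49-fold lower. None of the 10 was higher by this rule, which took 4.52% of all genes as higher. By a stricter rule, a mean of at least 2-fold and at least 1.5-fold on both arrays, 0 of 10 were lower and 0 higher, beside 0.88% and 1.53% of all genes. Taken singly, the members lay in the lower part of all genes, with 2% of genes below Synm, 3.14% below Myl9, 5.48% below Acta2 and 17.4% below Smtn. Centred on medians alone, 1 of the 10, Des, passed the rule, beside 2.58% of all genes.

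**Figure D3:**
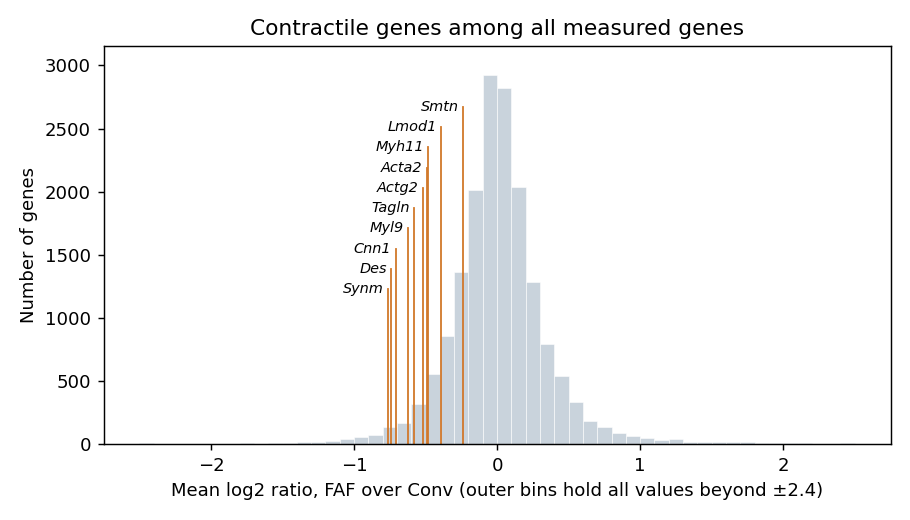
Number of genes (bars) by mean log2 ratio of FAF over Conv for the 17162 measured genes, with each contractile gene marked by a line whose height carries no value. The members lie between -0.76 and -0.24, against 25th and 75th percentiles of all genes of -0.17 and 0.16.

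The order of the members was only partly resolved. From the lowest up it ran Synm, Des, Cnn1, Myl9, Tagln, Actg2, Acta2, Myh11, Lmod1 and Smtn. In 0 of the 9 neighbouring pairs did the values of both arrays lie apart, and over all 45 pairs they did so in 22. Smtn stood above 8 of the other 9 genes on this measure, all but Lmod1. On the array with FAF in Cy5, 6 of the 10 genes had the lower of their 2 ratios, so neither array was lower throughout.

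Acta2 is the member with most probes, and they disagreed. Of its 4 measured probes, the 3 that start at bases 1278, 1641 and 2143 of the transcript gave log2 ratios of -0.49 ± 0.08, -0.64 ± 0.09 and -0.47 ± 0.03. The probe that starts at base 335 gave -0.04 ± 0.02, at 13.21 in Conv and 13.15 in FAF on the array with FAF in Cy5 and 13.19 and 13.17 on the other. The difference between this probe and the other Acta2 probes was larger than the gap between the arrays. The probe at base 1278 has several spots per array, and 9 of them gave -0.57 ± 0.04 (SD) on the first array and 7 gave -0.41 ± 0.05 on the second. The remaining Acta2 probe, which the array places on another transcript (mm9 chr19:34327946-34328005), did not rise well above background in Conv or in FAF.

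The Acta2 probe at base 335 covers 3255 bases of the genome (mm9 chr19:34322995-34326249), so it joins exons. Its sequence is shown because it differs from the other Acta2 probes in its ratio and actin genes are closely related. Capitals mark the bases identical, at the aligned place, to another probe of the array that is annotated as a cytoskeletal beta actin fragment.
Acta2, base 335: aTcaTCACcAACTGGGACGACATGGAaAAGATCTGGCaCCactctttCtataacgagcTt
Of the 59 aligned bases 36 are identical, and 31 of the 33 bases from position 5 to 37, counted from 1 at the 5′ end of the Acta2 probe. The fragment's probe had a log2 ratio of 0.21 ± 0.08. Among the 22 pairs of a member's probe and another gene's probe that share a run of at least 14 bases, no other pair had more than 27 identical bases. Whether the Acta2 probe at base 335 also bound RNA of other actins was not tested.

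**Figure D4:**
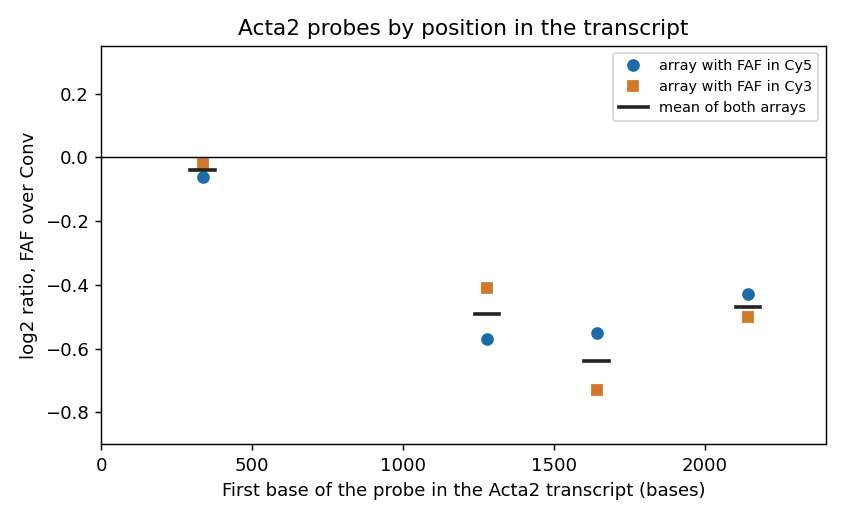
Log2 ratio of FAF over Conv of the 4 measured Acta2 probes by their first base in the transcript, on either array (circles, FAF in Cy5; squares, FAF in Cy3) and as the mean (bars). The probe at base 335 lies at -0.04 and the others between -0.64 and -0.47.

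Probes of the other members with several agreed more closely. The second Tagln probe, which starts at base 638 where the brighter one starts at 1140, gave -0.51 ± 0.11 beside -0.58 ± 0.24. Taking the mean over all measured probes moved Acta2 to -0.41 and left the median of the set at -0.53.

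The list called non-muscle relatives holds relatives of these proteins outside the set. Some, such as the cytoplasmic actins, are made by most cells, while others, such as the striated muscle gene Lmod3, are not. Over its 15 measured genes the median was 0.02, or -0.03 by the array with FAF in Cy3. On both arrays 4 were below and 6 above 0, and 1 was lower by the 1.5-fold rule. Of all measured genes 39.4% were below 0 on both arrays and 3.59% lower by this rule. The cytoplasmic actins stood at 0.02 ± 0.08 for Actb and 0.12 ± 0.05 for Actg1, against -0.49 and -0.52 for the muscle actins. The only measured Actb probe had a mean log2 intensity of 8.77, near the median of all genes, 8.85, while that of Actg1 had 15.02. Another probe of Actg1 gave 0.31. Myh9, a non-muscle myosin heavy chain, stood at -0.10 ± 0.14, and the non-muscle light chain Myl12b at 0.12 ± 0.03, against -0.48 for Myh11 and -0.62 for Myl9. Other probes gave 0.11 for Myh9 and 0.17 for Myl12b. Tagln2, the relative of Tagln, had 0.16 ± 0.00. The gene that passed was Cnn3, at -0.67 ± 0.01 beside -0.71 for Cnn1, while Cnn2 had -0.31 ± 0.14. The difference between the muscle genes and their relatives was not tested.

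Further genes of the contractile pathway had medians nearer to 0. The 1.5-fold rule took 3.59% of all measured genes as lower and 4.52% as higher, and 39.4% were below 0 on both arrays. Of 17 genes that regulate contraction 2 were lower by this rule and none higher, and their median was -0.19. These were Tpm2, a tropomyosin of the thin filament, at -0.70 ± 0.14, and Ppp1r14a, an inhibitor of myosin phosphatase, at -0.66 ± 0.05. The light chain kinase Mylk, singled out after its value was seen, stood at -0.44 ± 0.10, and its other probe at -0.48. Among 23 genes of the adhesion plaques, dense bodies and membrane skeleton 3 passed the rule as lower and none as higher, 17 were below 0 on both arrays, and the median was -0.23, or -0.10 when all probes of a gene were averaged. They were the filamin Flnc at -0.66 ± 0.02, the kinase Dmpk at -0.61 ± 0.10 and the LIM protein Csrp1 at -0.59 ± 0.27. However, other probes of Flnc stood at -0.34 and -0.01, and those of Dmpk at -0.44 and -0.27.

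Regulators and receptors were mixed. Of 11 measured transcription factors 1 was lower by the 1.5-fold rule, Tead1 at -0.87 ± 0.18, with another probe at -0.28. Gata6 was the 1 that was higher, at 0.67 ± 0.02, and its other probe gave 0.45. The rule took 3.59% of all genes as lower and 4.52% as higher. The list's median was -0.16, but -0.06 when all probes of a gene were averaged or by the array with FAF in Cy3, and -0.10 without a filter on dim probes; the software's ratio gave -0.25. Srf and its partner Myocd, singled out after their values were seen, stood at -0.33 ± 0.18 and -0.16 ± 0.03. Another probe of Myocd gave -0.01. The ion channel and receptor list had 13 of 17 genes measured, a median of -0.02, or 0.03 by the array with FAF in Cy5, and 1 gene past the rule, the calcium release channel Itpr1, higher at 0.92 ± 0.05. For the muscarinic receptors Chrm2 and Chrm3 neither diet gave a signal well above background. Most measured genes of the channel and transcription factor lists were dimmer than Smtn, the dimmest member, at a mean log2 intensity of 8.77. With an offset of 10 the medians were -0.04 for channels and receptors and -0.21 for transcription factors. That setting gave -0.28 for adhesion and anchoring and -0.19 for regulation of contraction. The part of brightness in these medians was not tested. With the array software's own ratio, which was made with other background and dye steps, the medians were -0.18 for channels and receptors, -0.25 for regulation of contraction and -0.38 for adhesion and anchoring, while that of the contractile genes stayed at -0.55.

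Markers of other cells in the wall were set beside the contractile genes. A summed signal weights each gene by the brightness of its probe, so sums are given as a share of Conv within a list and are not a comparison between lists. That of the 10 members in FAF was 64% of that in Conv on the array with FAF in Cy5 and 68.5% on the other. For 14 fibroblast genes it was 67.3% and 67.5%, with a median ratio of -0.36, 5 genes lower and 1, Fbln1, higher. This median was -0.53 with an offset of 10 and -0.74 with the software's ratio, below the -0.55 that this ratio gave for the contractile genes. Dcn, Col1a1 and Lum, which encode matrix proteins, were lower at -1.04 ± 0.06, -1.02 ± 0.01 and -0.88 ± 0.16. Another probe of Col1a1 gave -0.69. Pdgfra, a receptor of fibroblasts, stood at 0.13 ± 0.08, and its other probe at -0.03. All 12 measured genes of enteric neurons, which run between the muscle layers, were below 0 on both arrays, with a median of -0.30, or -0.48 with the software's ratio, and sums of 74.5% and 73.5%. Of these the neuropeptides Gal at -0.80 ± 0.07 and Vip at -0.60 ± 0.07 were lower by the 1.5-fold rule, while Chat and Ret did not reach the background limit. Over all measured genes 39.4% were below 0 on both arrays, and this rule took 3.59% as lower and 4.52% as higher.

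The remaining lists differed widely, from fat, far below 0, to endothelium, above it. Interstitial cells of Cajal, the pacemaker cells of gut muscle, had a median of -0.09 over 6 genes, with Kit at -0.27 ± 0.07, Prkcq at -0.27 ± 0.01 and Ano1 at 0.05 ± 0.06, and none passed the rule. Enteric glia had a median of -0.02 over 5 genes, with S100b at -0.19 ± 0.00 and Erbb3 at 0.30 ± 0.08. Other probes of Erbb3 gave between 0.02 and 0.18, and the sums of the list, 115% and 127%, rest mainly on the brightest Erbb3 probe. Pericyte genes had a median of -0.04 over 7 genes, with Kcnj8 at -0.56 ± 0.02, Rgs5 at -0.36 ± 0.03 and Notch3 at 0.40 ± 0.15. Endothelial genes had a median of 0.34 over 11 genes, with Tek at 0.50 ± 0.17, Egfl7 at 0.45 ± 0.04, Pecam1 at 0.34 ± 0.07 and Cdh5 at 0.28 ± 0.14, and sums of 125% and 119%. Other probes gave 0.17 for Tek and 0.21 for Cdh5. Epithelial genes had a median of -0.09 over 13 genes and sums of 113% and 95.9%, with Cldn15 at 0.50 ± 0.09, Vil1 at 0.39 ± 0.09 and Epcam at 0.10 ± 0.10. On both arrays 5 epithelial genes were below 0 and 3 above, beside 39.4% of all genes below 0 on both. Krt18 and Krt19, singled out after their values were seen, stood at -0.36 ± 0.05 and -0.33 ± 0.13, and Krt20 at 0.38 ± 0.20. Of 16 striated muscle genes 11 were measured, with a median of -0.19 and sums of 81.5% and 81.3%. The median was -0.29 over those well above background in both diets and -0.09 without a filter. Tnnt2, a troponin, passed the rule at -0.80 ± 0.02, beside Actc1 at -0.57 ± 0.01, Acta1 at 0.39 ± 0.05 and Ckm at -0.39 ± 0.04, and Myh4 did not reach the background limit. Fat genes, as of mesentery, had a median of -1.06 over 8 genes, with Cfd at -2.72 ± 0.02. This median was -1.56 with an offset of 10 and -2.13 with the software's ratio. The sums of 89.1% and 101% rest mainly on the 2 brightest probes, of Fabp4 at -0.39 ± 0.12 and Cidec at 1.06 ± 0.11. Mesothelial genes, of the outer covering, had a median of -0.18 over 3 measured of 6, or -0.43 with the software's ratio, with Krt7 at -0.38 ± 0.05 and Msln at -0.18 ± 0.04. The part of any of these in the lower contractile signal was not tested.

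**Figure D5:**
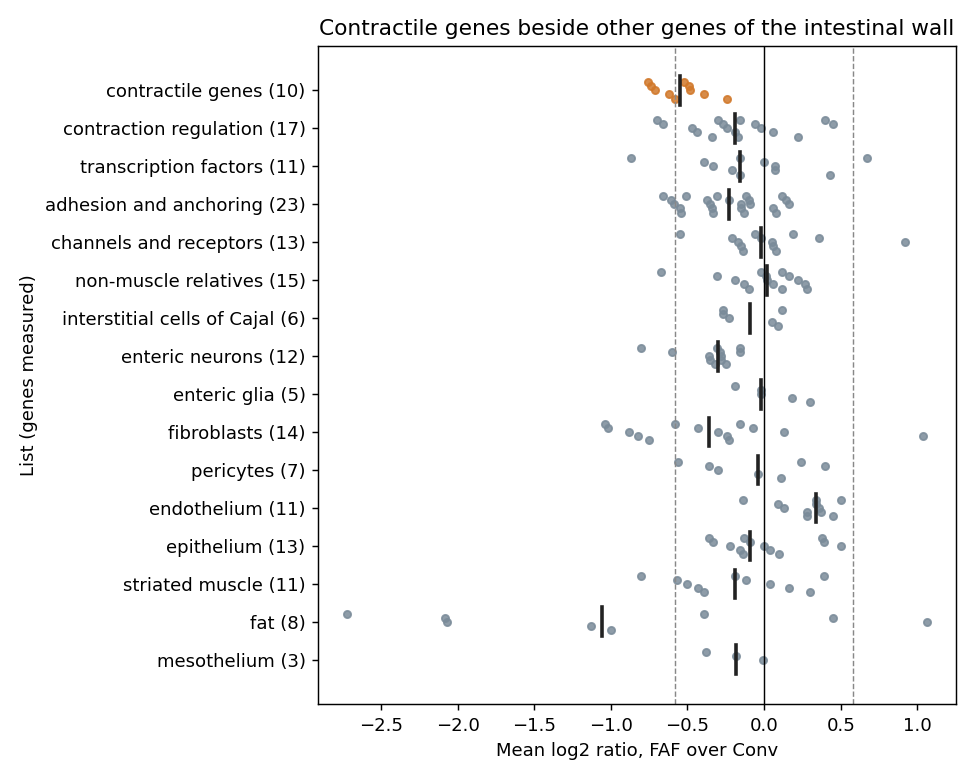
Mean log2 ratio of FAF over Conv of each measured gene (points) in the contractile set and in 15 other lists, with the list median as a bar, the number of genes measured in parentheses and dashed lines at 1.5-fold either way. All contractile genes lie left of 0, with a median of -0.55, while the list called non-muscle relatives has a median of 0.02 and endothelial genes one of 0.34.

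Promoter windows were read from RefSeq for GRCm38.p6, from 250 bases before to 50 after each gene's start, and 7 of the 10 genes had one. A CArG box, searched by name as a pair of C, 6 bases of A or T and a pair of G, reads as the same motif on both strands. It occurred in the window of 1 of these 7 genes, Myl9, and in 1.63% of all 32851 windows. A CArG-like form, with 1 G or C among the 6 central bases, was added after these promoters were seen, so its shares are no test of enrichment. It occurred in the windows of Acta2, Synm and Myl9 and in 8.5% of all windows, and either form in 9.98%. The windows of Cnn1, Des, Lmod1 and Smtn held neither. These 3 promoters are shown because they hold the boxes, which are in capitals.
Acta2, chr19:34255324-34255623, minus strand: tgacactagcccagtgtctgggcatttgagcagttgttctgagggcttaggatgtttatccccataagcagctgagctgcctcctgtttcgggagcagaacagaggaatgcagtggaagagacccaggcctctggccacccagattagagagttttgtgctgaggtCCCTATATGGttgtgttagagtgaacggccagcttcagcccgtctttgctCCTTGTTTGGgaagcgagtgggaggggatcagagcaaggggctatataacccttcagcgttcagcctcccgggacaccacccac
Synm, chr7:67759693-67759992, minus strand: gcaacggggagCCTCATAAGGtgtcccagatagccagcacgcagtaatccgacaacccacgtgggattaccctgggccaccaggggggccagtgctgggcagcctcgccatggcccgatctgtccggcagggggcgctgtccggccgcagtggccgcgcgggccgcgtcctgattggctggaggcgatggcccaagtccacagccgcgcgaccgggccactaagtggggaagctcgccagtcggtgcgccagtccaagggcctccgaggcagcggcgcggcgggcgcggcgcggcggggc
Myl9, chr2:156775214-156775513, plus strand: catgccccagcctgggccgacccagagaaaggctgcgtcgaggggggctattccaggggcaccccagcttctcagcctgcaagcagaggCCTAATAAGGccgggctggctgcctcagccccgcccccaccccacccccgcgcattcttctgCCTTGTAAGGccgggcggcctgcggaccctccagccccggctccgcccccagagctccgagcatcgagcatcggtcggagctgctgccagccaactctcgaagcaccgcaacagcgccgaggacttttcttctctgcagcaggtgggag
The 2 boxes of Acta2 begin 84 and 34 bases before the start, those of Myl9 161 and 99 before it, and that of Synm 239 before it. The log2 ratios of these 3 genes were -0.49, -0.62 and -0.76, and those of the 4 genes with neither form were -0.71, -0.74, -0.39 and -0.24. A match in the window is a description of its letters and not a measured binding site.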

How the data were processed

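The authors deposited each dye's spot intensity and local background on a linear scale; per the file headers, the software was Feature Extraction 11.5.1.1. The same deposited files hold quality flags and a log10 ratio of Cy5 over Cy3 that the software corrected for background and dye. The deposited value table equals that log10 ratio to within 4.99e-08. Background correction (normexp, offset 50) and loess within each array, with control spots at weight 0, were done in limma 3.58.1 under R 4.3.3. Signals per diet were scaled across arrays by quantiles of mean intensity (Aquantile). The labels' dyes set the direction of the log2 ratios, FAF over Conv, which were averaged over both arrays. Outlier spots were left out, spots of a probe averaged, and no spot was saturated. A probe counted as measured when well above background in at least 1 diet on both arrays (25440 of 41174 probes). The brightest probe represents a gene, and 27668 probes took their symbol from RefSeq (GRCm38.p6) by accession. Probe positions are those of the array file, in mm9. The steps were tested on simulated data.

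Members and lists were chosen with earlier results of these data known. All members and all probes of them are named. Of each other list, up to 4 genes past the 1.5-fold rule or otherwise the 2 largest are named, besides defining markers and non-muscle relatives; others are said to be chosen after their values were seen. The CArG-like form was added after the promoters were seen. Arrays have no read depth, and their number limits the precision. Some items are not reported here.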

Additional observations from a re-analysis of the deposited data

How the results depend on the processing

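10 alternatives were run, all planned: an offset of 10, no background correction, the software's log ratio, the deposited table, median centring, a stricter and no filter on dim signals, averaging all probes of a gene, and either array alone. All 100 mean ratios of members under them stayed below 0, although under median centring 9 members stood above 0 on 1 array. These values are not separate checks. The deposited table equals the software's ratio, both changes of the filter left every member's ratio as it was, and either array alone repeats ratios given above. The median of the set ran from -0.61 to -0.51 with 1 array left out, and from -0.56 to -0.51 under the others. The count of members lower by the 1.5-fold rule was 1 under median centring, where the dye trend over intensity stays in each array, between 3 and 6 with 1 array left out, 3 with the software's ratio or the deposited table, and 4 otherwise. By the 2-fold rule 0 members were lower under each of them, as with a limit of 4-fold. The software's ratio took 7.35% of all genes as lower by the 1.5-fold rule (1261 genes), against 3.59% (616). With an offset of 10 this share was 4.99%. The share was 3.8% with the array with FAF in Cy3 left out, where 6 members passed, and 4.42% with the other left out, where 3 did. With 1 array left out, the rule could not ask for the same sign on both. Of 150 medians of the other lists, as rounded, 4 changed sign (channels and receptors, glia, non-muscle relatives and pericytes), each with 1 array left out. The pericyte median was also 0.00 with the software's ratio or the deposited table, against -0.04. Smtn, the dimmest member, moved to -0.33 with the software's ratio. No paired analysis was possible because each diet has 1 RNA sample.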

Other observations

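The matrix and fat genes that stood beside the muscle genes had exceptions in the other direction. Fbln1, a fibulin of the extracellular matrix, was higher in FAF at 1.04 ± 0.01, and its other probe gave 0.95, while the collagens Col1a2 and Col3a1 stood at -0.75 ± 0.01 and -0.82 ± 0.05. Another probe of Col3a1 gave -0.22. Among fat genes Cidec, a protein of lipid droplets, was higher at 1.06 ± 0.11, where Adipoq, Car3 and Plin1 stood at -2.08 ± 0.00, -2.07 ± 0.00 and -1.13 ± 0.04. Another probe of Car3 gave -0.55 ± 0.10.

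Within the channel list, both measured probes of Itpr1, a calcium release channel of the endoplasmic reticulum, were higher, at 0.92 and 0.85. Among genes that regulate contraction, the kinases Rock1 and Rock2 stood at 0.40 ± 0.01 and 0.45 ± 0.08, opposite in sign to the contractile genes, and other probes of Rock1 gave 0.24 and 0.29. All of these were picked with their values in view, and their differences from the contractile set were not tested.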
